A study of Mus musculus with 6 samples.

Results

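Interferon-stimulated genes are the antiviral, sensing and signalling genes that cells switch on in response to interferon. A list of 39 of them, chosen by symbol, was followed through fetal liver erythroid progenitors left untreated, given dexamethasone, or given dexamethasone with GW7647. Of the 39, 38 had a row among the 37620 genes counted, and 31 had enough reads to be tested. Psmb9 had no row under its reference identifier, and 7 members fell below the filter on low counts. Most of the strong changes were falls after dexamethasone: Ifit1, Rsad2, Usp18, Isg15 and Oasl2 fell between 5.68-fold and 13.5-fold. Irf1, Irf7, Oas3 and Ifi27 fell between 2.12-fold and 3.23-fold. Trim25, Bst2, Ifi35 and Irf9 rose, by 1.999-fold at most, and none of the 4 tested RNA sensor genes was called changed. Among all tested genes, 26.0% were lower and 25.5% higher after dexamethasone.

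The cells were burst-forming unit erythroid progenitors (BFU-E), the earliest committed red cell progenitors, from livers of 129/SvImJ mouse embryos at E14.5. They had been depleted of lineage-positive, Sca-1+, CD16/32+, CD41+ and CD34+ cells and then sorted as c-kit+ cells among the lowest 10% for CD71. Of the 3 groups, the untreated cells received no drug. The Dex group received 100 nM dexamethasone, a synthetic glucocorticoid, and the group with both drugs received 100 nM dexamethasone and 10 µM GW7647, which activates the fatty acid sensing receptor PPARα. The described medium was serum-free, with stem cell factor at 100 ng/mL, IGF-1 at 40 ng/mL and erythropoietin at 2 U/mL, and no transgene or deletion was named for any group. The labels give 12 h of treatment, but the headers in 1 deposited table read 36 h, and it is not clear from them if the untreated cells were kept in culture. Each group had 2 libraries, and no group had GW7647 alone. Nothing in the labels says that the 2 libraries of a group came from separate sorts or litters, so every p-value measures only the spread between these libraries.

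Type I interferons bind a receptor made of Ifnar1 and Ifnar2, and the kinases Jak1 and Tyk2 then phosphorylate transducers that include Stat2. Stat2 and Irf9 act in a complex that binds the interferon-stimulated response element (ISRE) in promoters, while the response to interferon gamma runs through the gamma-activated site (GAS). Many of the induced proteins sense viral RNA, block its translation or degrade it, attach the ubiquitin-like protein ISG15 to other proteins, or feed back on the receptor.

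The promoters of 4 members are shown because they carry the ISRE core and belong to genes with opposite changes: Isg15, Ifit1 and Rsad2 fell after dexamethasone, and Bst2 rose. Each line gives the 150 bases that end just before the annotated transcription start, written on the strand of the gene, from RefSeq on GRCm38.p6. Capitals mark matches to the ISRE core GAAANNGAAA on either strand.
Isg15: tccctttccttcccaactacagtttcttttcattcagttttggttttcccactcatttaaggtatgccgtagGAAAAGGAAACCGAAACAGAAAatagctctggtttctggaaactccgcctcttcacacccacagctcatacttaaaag
Ifit1: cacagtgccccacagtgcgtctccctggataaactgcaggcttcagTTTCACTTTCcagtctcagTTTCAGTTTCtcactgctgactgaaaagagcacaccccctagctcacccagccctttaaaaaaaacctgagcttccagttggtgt
Rsad2: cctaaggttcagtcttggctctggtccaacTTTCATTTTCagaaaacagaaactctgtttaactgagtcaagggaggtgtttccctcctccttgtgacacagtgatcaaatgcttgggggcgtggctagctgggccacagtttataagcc
Bst2: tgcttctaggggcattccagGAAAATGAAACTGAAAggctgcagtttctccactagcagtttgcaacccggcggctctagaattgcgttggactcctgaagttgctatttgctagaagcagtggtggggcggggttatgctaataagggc
The Isg15 stretch is chr4:156200819-156200968 on the minus strand, and its 3 overlapping matches begin at bases -78, -72 and -66 from the start. The Ifit1 stretch is chr19:34640739-34640888 on the plus strand, with matches at -104 and -85. The Rsad2 stretch is chr12:26456453-26456602 on the minus strand, with its match at -120. The Bst2 stretch is chr8:71537473-71537622 on the minus strand, with overlapping matches at -130 and -124 and a GAS match (TTCNNNGAA) at -136 that runs into the first of them. Trim25, which rose most, had no ISRE or GAS match in its window, and neither did Oasl2 or Irf7, which fell.

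RefSeq promoter windows of 250 bases before to 50 bases after the start were matched for 31 of the 39 members. The ISRE core was present in 14 of these 31 members, and in 15 of their 36 windows (41.7%). Among all 32851 windows of the same length, 3.44% held it. The GAS letters were present in 7 of the 36 member windows (19.4%), against 8.30% of all windows, and the glucocorticoid receptor element GNACANNNTGTNC was present in 0 of the 36, against 0.475% of all windows. Sorted by the dexamethasone response, the ISRE core was present in 4 of 11 members that fell, 1 of 4 that rose, 7 of 11 that were not called and 2 of 4 that were too low to test. These matches are letters in a window and were not tested as binding sites.

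Libraries held 35970286 to 54174801 counts, and the 38 members together made up 0.0720% and 0.0723% of an untreated library, 0.0651% and 0.0649% with Dex, and 0.0593% and 0.0594% with both drugs. Values below are normalized counts, that is, counts scaled to a common library size by trimmed mean of M values. A gene was called changed when its Benjamini-Hochberg adjusted p from the edgeR quasi-likelihood test over all 14125 tested genes was below 0.05. The glucocorticoid target Fkbp5 stood at 1715 and 1769 in untreated libraries and between 5273 and 5457 in the other 4, and the PPARα target Cpt1a at 1971 and 2004 with Dex and 5889 and 5595 with both drugs, as the labels would have it. Pdk4, a further PPARα target, was too low to test. Of the 10 erythroid progenitor markers listed, the 9 with a row were all tested, among them Kit (4270 and 4311, 12680 and 12630, and 12800 and 12890 in the untreated, Dex and both-drug libraries).

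With dexamethasone against untreated, 14 of the 31 tested members were lower and 4 higher, while 13 were not called. That is 45.2% lower and 12.9% higher, beside 26.0% lower and 25.5% higher among all tested genes. The median log2 difference of the tested members was -0.41, beside 0.01 for all tested genes, and the members ranged from -3.76 to 1.0. At least 2-fold differences were reached by 9 of the lower members and 0 of the higher ones. Of all 14125 tested genes, 989 were called at least 2-fold lower and 729 at least 2-fold higher. Oas1a and Gbp3 passed the filter on low counts only through the untreated and Dex groups, whereas the other tested members reached it in all 3 groups. The summed normalized counts of the 14 lower members were 16180 and 16340 in untreated libraries, 3710 and 3712 with Dex, and 3768 and 3896 with both drugs, and Oasl2 supplied the larger share of them in untreated cells. The 4 higher members summed to 10330 and 10510, then 17320 and 17180, then 15310 and 15470. In bulk RNA, fewer cells that express a gene and less of its RNA per cell cannot be told apart.

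**Figure D1:**
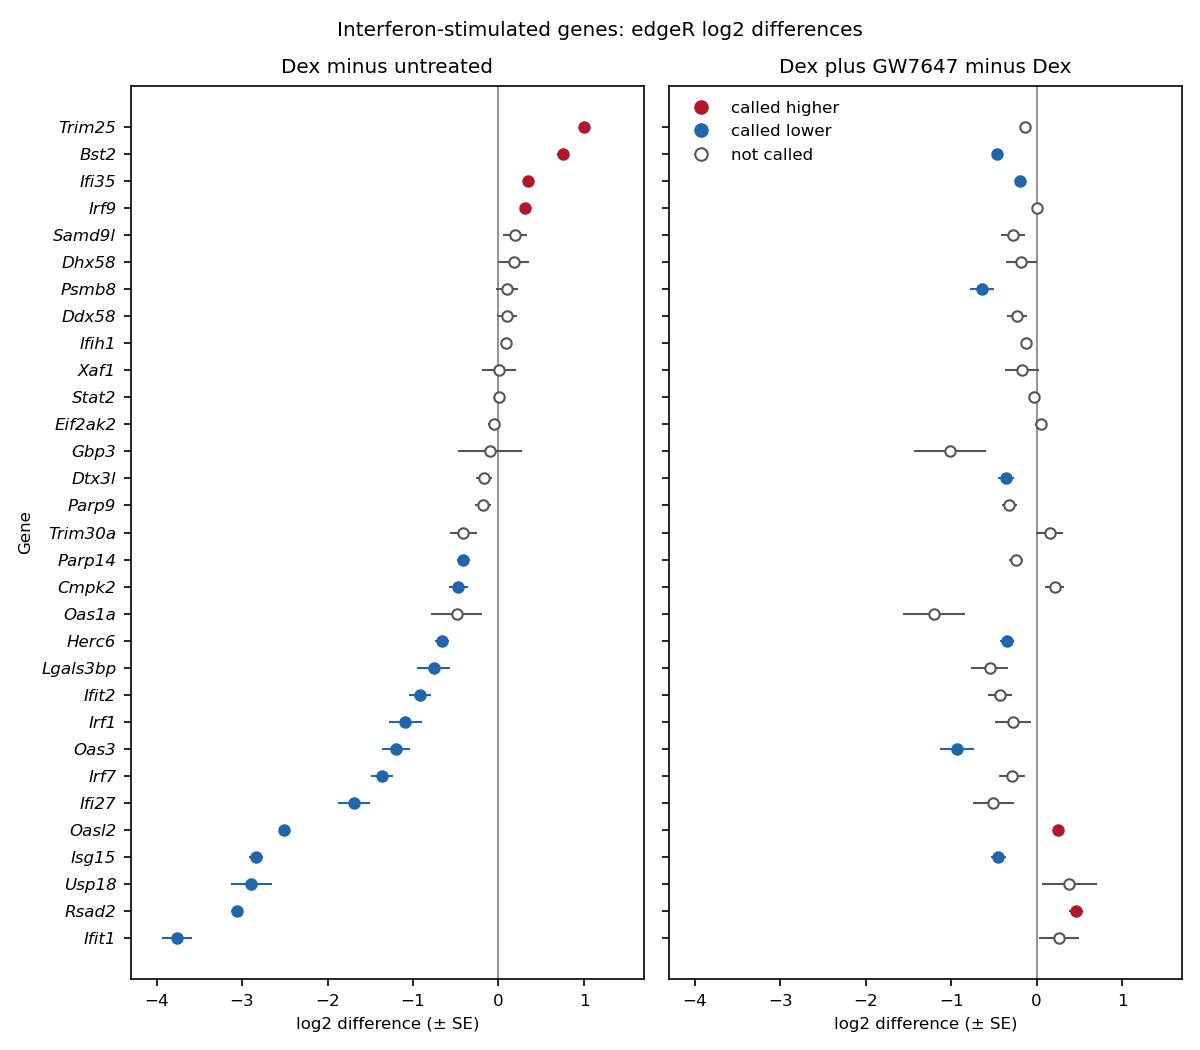
edgeR log2 differences (x axes, ± SE) of the 31 tested interferon-stimulated genes (y axis), Dex minus untreated on the left and Dex plus GW7647 minus Dex on the right, with called genes filled. On the left the genes run from Ifit1 at -3.76 to Trim25 at 1.0, and on the right no called gene lies beyond -0.93 or 0.46.

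Of the 4 transcription factors and transducers, 2 fell with dexamethasone, 1 rose and 1 was not called, beside 26.0% lower and 25.5% higher of all tested genes. Irf7, the factor that amplifies type I interferon production, stood at 266.5 and 297.2 in untreated libraries, 108.8 and 110.6 with Dex, and 83.04 and 98.03 with both drugs. The untreated libraries lay above the other 4, and the fall after dexamethasone was 2.57-fold (log2 -1.36 ± 0.13, adjusted p = 1.54e-05). Irf1, a factor induced strongly by interferon gamma, stood at 94.14 and 115.6, then 52.47 and 45.94, then 44.23 and 36.61. It was again highest in both untreated libraries and fell 2.12-fold (log2 -1.09 ± 0.19, adjusted p = 0.000851). Irf9, the DNA-binding partner of Stat2, moved the other way, with 2044 and 2154 untreated, 2579 and 2644 with Dex, and 2613 and 2604 with both drugs. Its rise of 1.24-fold was small but lay outside the spread of the libraries (log2 0.31 ± 0.05, adjusted p = 0.000459), and the Dex and both-drug libraries overlapped. Stat2 itself, the transducer, stood between 1370 and 1441 in all 6 libraries, the groups overlapped, and its difference was 0.01 ± 0.05 (adjusted p = 0.876). Scaled by total counts, which shifts the median of all genes to 0.14, Stat2 was called higher by 0.14 (adjusted p = 0.0446).

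The RNA sensors showed no called change in any of the 3 comparisons. With Dex, 26.0% of all tested genes were lower and 25.5% higher. Ifih1, which encodes MDA5, averaged 729.5 ± 17.8 untreated, 775.3 ± 4.14 with Dex and 714.1 ± 3.99 with both drugs (SD, n = 2). Ddx58, which encodes RIG-I, averaged 182.6 ± 8.03, 195.3 ± 8.87 and 165.9 ± 4.10, and Dhx58, the related LGP2, 88.26 ± 14.2, 100.2 ± 1.20 and 89.46 ± 15.5. Eif2ak2, the kinase PKR that halts translation on double-stranded RNA, averaged 2011 ± 193, 1939 ± 108 and 2008 ± 31.5. Their dexamethasone differences lay between -0.05 and 0.18, with a median of 0.10, and with total count scaling Ifih1 was called higher by 0.22 (adjusted p = 0.0148). Zbp1, a sensor of Z-form nucleic acid, had 1 and 2 raw counts in untreated libraries and 0 in the other 4, too few to compare.

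Of the 8 IFIT and OAS members, 5 were tested and 4 of these fell with dexamethasone, beside 26.0% of all tested genes. Ifit1 fell by the largest fold of any member. Ifit1, which binds viral RNA lacking the host cap modification, stood at 561.1 and 689.2 in untreated libraries, 44.75 and 47.82 with Dex, and 64.99 and 43.70 with both drugs. Untreated cells were far above the rest, and the fall was 13.5-fold (log2 -3.76 ± 0.18, adjusted p = 1.10e-07). The both-drug libraries overlapped those with Dex alone, 0.26 ± 0.23 apart (adjusted p = 0.539). Ifit2, a relative of Ifit1, stood at 292.2 and 270.6, then 145.8 and 151.0, then 99.29 and 122.8. It fell 1.90-fold with Dex (log2 -0.92 ± 0.13, adjusted p = 0.000208), and its further difference with GW7647 was not called (log2 -0.43 ± 0.14, adjusted p = 0.0924). The third member of the cluster, Ifit3, had 12 and 5 raw counts untreated, 2 and 4 with Dex, and 1 and 3 with both drugs. It was below the filter, and was called lower with Dex when every gene was tested (log2 -1.92, adjusted p = 0.0445).

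The oligoadenylate synthetases make the small activator of RNase L, which degrades RNA. Oasl2, of the same family and with ubiquitin-like domains, had more counts than any other member in untreated cells. Its values were 8921 and 9008 untreated, 1606 and 1547 with Dex, and 1866 and 1890 with both drugs. The 3 groups were separate, with a 5.68-fold fall after dexamethasone (log2 -2.51 ± 0.05, adjusted p = 8.74e-10) and a small rise of 1.19-fold when GW7647 was added (log2 0.25 ± 0.05, adjusted p = 0.00988). Oas3 stood at 140.6 and 156.1, then 59.41 and 70.32, then 32.49 and 35.43. It stepped down from group to group, 2.30-fold with Dex (log2 -1.20 ± 0.16, adjusted p = 0.000156) and 1.91-fold more with GW7647 (log2 -0.93 ± 0.20, adjusted p = 0.0156). Oas1a averaged 34.94 ± 6.19, 24.42 ± 8.02 and 10.87 ± 1.33, and was called only for both drugs against untreated (log2 -1.69 ± 0.36, adjusted p = 0.00320). Oas2 and Oasl1 were below the filter, Oas2 with 5 and 10 raw counts untreated and 0 to 2 in the other libraries, Oasl1 with 6 and 3 and then 0 or 1. When every gene was tested, Oas2 was called lower with Dex (log2 -3.19, adjusted p = 0.00960) and Oasl1 was not called.

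**Figure D2:**
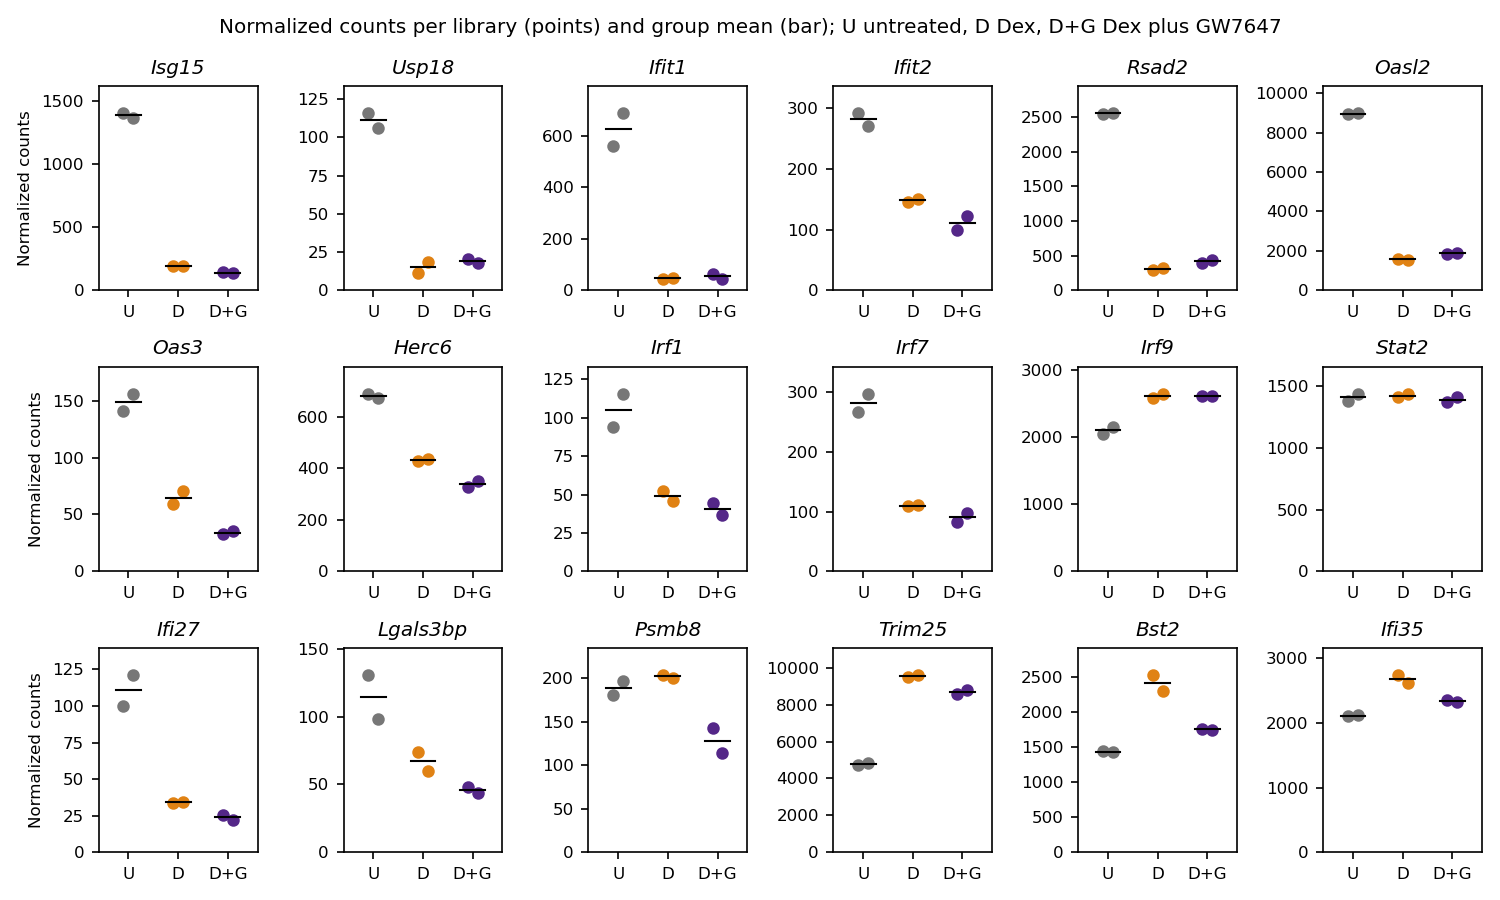
Normalized counts (y axes, from 0) of 18 interferon-stimulated genes in each library (points) by group (x axes), with group means as bars. The untreated libraries stand apart at the top for Isg15 (1411 and 1369), Ifit1 and Rsad2, the Dex libraries stand at the top for Bst2 and Ifi35, and Stat2 lies between 1370 and 1441 in all 6.

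Of the 8 genes of ISG15 conjugation and the interferon-linked ubiquitin ligases, 4 fell with dexamethasone, 1 rose and 3 were not called. The shares of all tested genes were 26.0% lower and 25.5% higher. Isg15, the ubiquitin-like modifier itself, stood at 1411 and 1369 untreated, 195.2 and 192.2 with Dex, and 142.6 and 140.5 with both drugs. The 3 groups did not overlap. Isg15 was 7.17-fold lower with Dex than in untreated libraries (log2 -2.84 ± 0.08, adjusted p = 3.37e-09). The libraries with GW7647 were 1.37-fold lower again (log2 -0.45 ± 0.09, adjusted p = 0.0139). Usp18, the protease that removes ISG15 and restrains the receptor, stood at 116.1 and 106.4, then 11.57 and 18.75, then 20.76 and 17.72. Its 7.42-fold fall (log2 -2.89 ± 0.24, adjusted p = 5.28e-06) left both treated groups low and overlapping. Herc6, the mouse ligase for ISG15, stood at 689.5 and 674.1, then 428.2 and 436.0, then 327.6 and 351.9. It stepped down 1.58-fold (log2 -0.66 ± 0.08, adjusted p = 5.81e-05) and then 1.27-fold (log2 -0.35 ± 0.08, adjusted p = 0.0228).

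Trim25, Bst2 and Ifi35 fell outside the rule for printing every library and were added after their values were seen. Trim25, the ubiquitin ligase that activates RIG-I, stood at 4731 and 4813 untreated, 9467 and 9617 with Dex, and 8579 and 8796 with both drugs. It rose 1.999-fold with dexamethasone, just under the 2-fold cut (log2 1.0 ± 0.04, adjusted p = 7.90e-08). The lower value with GW7647 was not called (log2 -0.14 ± 0.04, adjusted p = 0.0879). Parp14, a mono-ADP-ribosyltransferase, averaged 609.5 ± 18.1, 459.4 ± 3.94 and 390.4 ± 27.5 (SD, n = 2), and fell with Dex (log2 -0.41 ± 0.08, adjusted p = 0.00191). The ligase Dtx3l and its partner Parp9 were not called with Dex, at -0.17 and -0.18, and both were lower with both drugs than in untreated cells, by -0.53 (adjusted p = 0.000870) and -0.50 (adjusted p = 0.00140). Trim30a, a TRIM protein that restrains inflammatory signalling, differed by -0.41 ± 0.16 (adjusted p = 0.0547), just past the threshold, and was called lower under 6 of the 13 alternative settings. Dtx3l and Parp9 overlap on opposite strands in the later annotation, and strand use in counting is not given in the sources used here, so part of their counts may be shared.

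Of the 12 other effectors, 9 were tested, and 4 fell and 2 rose with dexamethasone, beside 26.0% and 25.5% of all tested genes. Rsad2, or viperin, which makes a chain-terminating nucleotide, stood at 2537 and 2560 untreated, 290.1 and 321.6 with Dex, and 401.7 and 442.9 with both drugs. The groups were separate, with an 8.35-fold fall after dexamethasone (log2 -3.06 ± 0.07, adjusted p = 1.93e-09) and a 1.38-fold rise with GW7647 added (log2 0.46 ± 0.08, adjusted p = 0.00624). Cmpk2, its genomic neighbour that supplies the nucleotide substrate, averaged 288.0 ± 19.7, 208.5 ± 15.5 and 241.0 ± 0.0429, a 1.38-fold fall with Dex (log2 -0.47 ± 0.11, adjusted p = 0.00562). Ifi27, a small hydrophobic membrane protein, stood at 100.2 and 121.4, then 33.95 and 34.69, then 25.27 and 22.44. Its fall was 3.23-fold with Dex (log2 -1.69 ± 0.19, adjusted p = 4.35e-05), and the both-drug libraries were lowest without a called difference (log2 -0.51, adjusted p = 0.224). Lgals3bp, a secreted glycoprotein, stood at 130.8 and 98.29, then 74.07 and 60.01, then 47.84 and 43.70. It fell 1.69-fold with Dex (log2 -0.76 ± 0.19, adjusted p = 0.00790), which did not pass once untreated replicate 1 was left out (adjusted p = 0.0811).

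Bst2, or tetherin, which holds budding virus at the cell surface, went the other way. It stood at 1447 and 1428 untreated, 2532 and 2305 with Dex, and 1758 and 1749 with both drugs. The Dex libraries were highest and the groups did not overlap, with a 1.68-fold rise (log2 0.75 ± 0.06, adjusted p = 3.35e-06) and a 1.38-fold fall on adding GW7647 (log2 -0.46 ± 0.06, adjusted p = 0.000731). Ifi35, which interacts with Nmi in innate signalling, had the same shape at 2105 and 2116, then 2744 and 2617, then 2358 and 2324. It rose 1.27-fold (log2 0.35 ± 0.05, adjusted p = 0.000225) and then fell 1.14-fold (log2 -0.20 ± 0.05, adjusted p = 0.0317). Ifi35 overlaps Gm11626 on the opposite strand over 16.8% of its exons. Samd9l, a translation inhibitor, averaged 303.4 ± 14.1, 348.7 ± 78.4 and 285.3 ± 4.003 and was not called. Its 2 Dex libraries differed from each other, at 293.2 and 404.1, and overlapped the untreated ones. Without Dex replicate 1 the difference from untreated cells rested on the higher Dex library alone (log2 0.41). Xaf1, a pro-apoptotic factor, averaged 49.34 ± 1.10, 50.04 ± 7.47 and 44.24 ± 2.57, and Gbp3, a guanylate-binding protein, 17.81 ± 0.980, 16.96 ± 6.52 and 8.056 ± 1.37, neither called in any comparison. Under 4 of the 13 alternative settings Gbp3 was called lower with both drugs than in untreated cells (adjusted p = 0.0327 to 0.0494). Gbp2 had 3 to 11 raw counts, Rtp4 0 to 4 and Ifi44 0 or 1 in any library.

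Psmb8, a catalytic subunit of the immunoproteasome, which cuts peptides for MHC class I, was called only against the libraries with GW7647. It stood at 180.9 and 196.6 untreated, 203.7 and 199.7 with Dex, and 142.6 and 113.4 with both drugs. Untreated and Dex libraries lay close together (log2 0.10 ± 0.13, adjusted p = 0.579), and both libraries with GW7647 were below them (log2 -0.64 ± 0.14, adjusted p = 0.0159). Psmb8 overlaps Gm20496 on the opposite strand over 14.7% of its exons. Psmb9, the subunit that joins it, was not analysed here.

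The second comparison, dexamethasone with GW7647 against dexamethasone alone, asks what the PPARα agonist adds. Of the 31 tested members, 7 were lower (22.6%, beside 7.58% of all tested genes) and 2 higher (6.5%, beside 2.15%), and 22 were not called. None of the differences that were called reached 2-fold. Such differences were also few among all 14125 tested genes, with 201 called at least 2-fold lower and 16 at least 2-fold higher. The 7 lower members were Oas3, Psmb8, Bst2, Isg15, Dtx3l, Herc6 and Ifi35, and the 2 higher ones Rsad2 and Oasl2. The median was -0.24, beside 0.0 for all tested genes. Leaving out a both-drug library left 1 higher and 2 lower (without replicate 1) or 0 higher and 2 lower (without replicate 2), and of the 9 only Bst2 was called in all 13 alternative settings. In the authors' deposited table for Dex against both drugs, 4 of 36 members with a p passed 0.05, beside 4.42% of all genes. The ratios of Dex over both drugs in the authors' deposited table were 1.37 for Bst2, 1.57 for Psmb8, 0.836 for Oasl2 and 0.721 for Rsad2.

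With both drugs against untreated cells, 17 of the 31 tested members were lower (54.8%, beside 25.1% of all tested genes) and 4 higher (12.9%, beside 24.7%). The median was -0.55, beside 0.02 for all tested genes, and -1.04 with every gene or -1.08 with DESeq2, where the 7 low members enter. Of the tested members, 13 of the lower members and 0 of the higher ones differed at least 2-fold. Of all 14125 tested genes, 1280 were called at least 2-fold lower and 491 at least 2-fold higher. This comparison shares its untreated libraries with the dexamethasone comparison and its both-drug libraries with the GW7647 comparison, so the counts are not separate evidence. Isg15 ended 9.80-fold below untreated cells (log2 -3.29 ± 0.08, adjusted p = 3.89e-09), Ifit1 11.3-fold below (log2 -3.49 ± 0.18, adjusted p = 1.93e-07) and Oas3 4.38-fold below (log2 -2.13 ± 0.18, adjusted p = 7.50e-06). Trim25, Irf9, Bst2 and Ifi35 stayed above untreated cells, by 0.86, 0.31, 0.29 and 0.15 on the log2 scale, and the call of Ifi35 (adjusted p = 0.0292) was lost in 6 of the 13 alternative settings. In the authors' deposited table for this pair, 20 of 38 members passed 0.05, beside 29.1% of all genes, with Irf9, Trim25 and Bst2 above 1 and the other 17 below.

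Levels can be compared between genes per kilobase of exon, on lengths from the GRCm38 annotation GENCODE M21, which is later than the build the authors used. In untreated cells Isg15 had the highest level, 1839 ± 39.0 normalized counts per kilobase, followed by Bst2 at 1592 ± 15.2, Oasl2 at 1406 ± 9.63, Ifi35 at 1222 ± 4.44, Trim25 at 829.3 ± 10.0 and Rsad2 at 587.9 ± 3.80 (SD, n = 2). Neighbours further down were not separated by their spread: Eif2ak2 at 393.2 ± 37.7 and Irf9 at 389.7 ± 14.46, and Stat2 at 238.2 ± 6.93 and Ifit1 at 235.4 ± 34.1. The median member stood at 73.38 per kilobase untreated, 49.37 with Dex and 37.86 with both drugs, while the median of the 13577 tested genes with a length stood at 232.1, 237.6 and 236.9. Of the 31 members, 10, 8 and 6 lay above that median in the 3 groups. With Dex the order at the top changed, to Bst2 at 2678, Trim25 at 1658 and Ifi35 at 1552, with Isg15 at 256.2 and Oasl2 at 247.3.

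**Figure D3:**
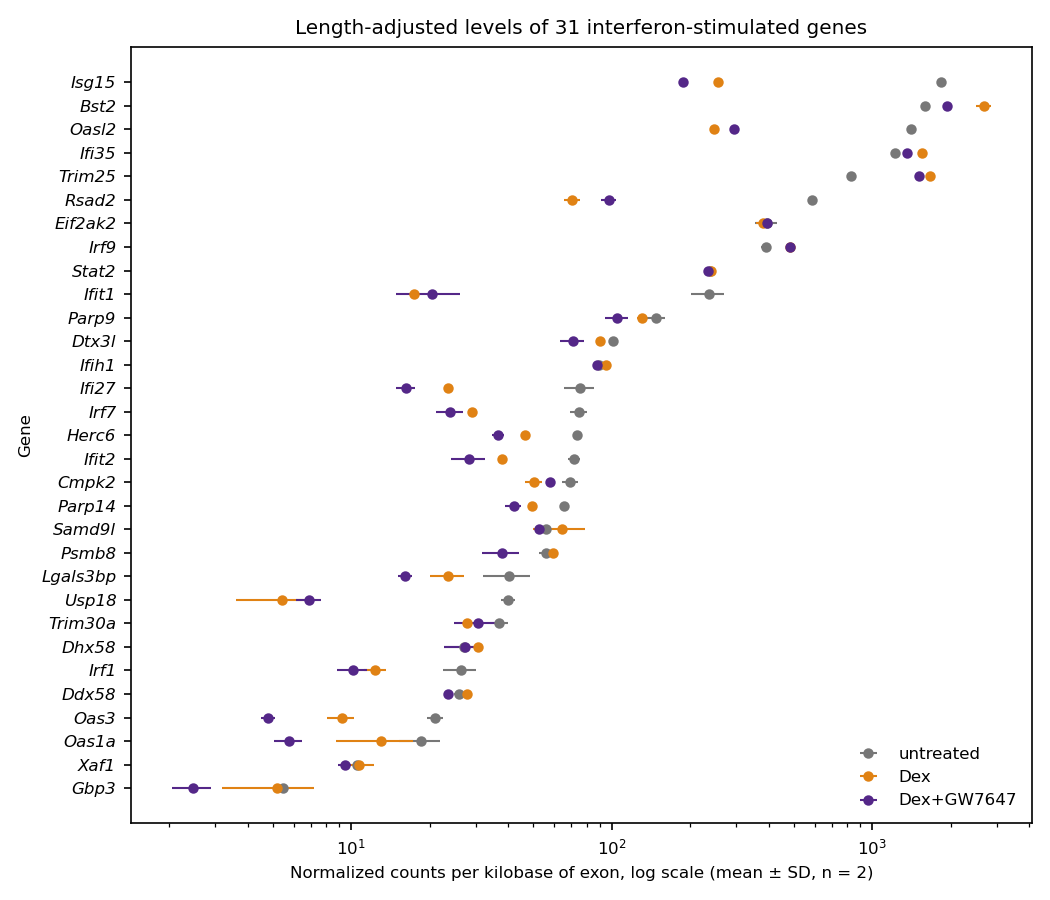
Normalized counts per kilobase of exon (x axis, log scale) of the 31 tested interferon-stimulated genes (y axis, ordered by the untreated level), as mean ± SD of 2 libraries in each group. Isg15 drops from 1839 untreated to 256.2 with Dex and 187.3 with both drugs, while Bst2 goes from 1592 to 2678 and 1942.

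The interferon genes themselves gave almost no reads. Of the 21 interferon ligand genes listed, 11 had a row, none could be tested, and 8 were at 0 in every library: Ifna4, Ifna12, Ifna13, Ifna16, Ifne, Ifng, Ifnl2 and Ifnl3. The others gave 5 counts in all 6 libraries together, with Ifnb1 at 1 count in each untreated library. Interferon reaching the cells from outside was not measured.

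In the receptor and its signalling chain, 9 of 10 listed genes were tested. With Dex 2 were higher (22.2%, beside 25.5% of all tested genes) and 4 lower (44.4%, beside 26.0%), and 0 were called between both drugs and Dex. Ifnar2, the high-affinity chain of the type I receptor, fell 1.698-fold, from 3039 and 3052 to 1796 and 1790 (log2 -0.76, adjusted p = 8.40e-07). Ifnar1, its partner, fell 1.25-fold, from 3153 and 3194 to 2529 and 2566 (log2 -0.32, adjusted p = 0.000239). Of the kinases, Jak1 rose 1.94-fold, from 8256 and 7689 to 15370 and 15550 (log2 0.96, adjusted p = 1.91e-07). Tyk2 rose 1.56-fold, from 1731 and 1715 to 2705 and 2657 (log2 0.64, adjusted p = 3.59e-06). Jak2, named after its values were seen, fell 1.20-fold, from 4855 and 4743 to 3942 and 4064 (log2 -0.26, adjusted p = 0.00104). Ifngr1, a chain of the interferon gamma receptor, was not called (log2 0.14, adjusted p = 0.0867).

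Among the sensing adaptors and kinases, 14 of 17 were tested, and 5 were higher (35.7%) and 4 lower (28.6%) with Dex, beside 25.5% and 26.0% of all tested genes. Mavs, the mitochondrial adaptor of RIG-I and MDA5, fell 2.00-fold, from 2929 and 3025 to 1484 and 1497 (log2 -1.0, adjusted p = 1.40e-07), and Irf8, a factor of myeloid and dendritic cell development, fell 3.68-fold, from 169.9 and 151.5 to 45.52 and 41.25 (log2 -1.88, adjusted p = 2.59e-05). The Toll-like receptor adaptor Myd88 rose 1.51-fold (log2 0.59, adjusted p = 6.47e-06) and the kinase Tbk1 1.48-fold (log2 0.56, adjusted p = 9.28e-06). On adding GW7647, 6 of the 14 were lower (42.9%, beside 7.58% of all tested genes) and 0 higher.

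Of the 12 inhibitors of the pathway, all tested, 4 were higher (33.3%) and 3 lower (25%) with Dex, near the 25.5% and 26.0% of all tested genes. Socs1, which blocks the JAK kinases, rose 3.96-fold, from 129.6 and 168.8 to 612.6 and 572.9 (log2 1.99, adjusted p = 4.61e-07), and stood at 547.0 and 553.9 with both drugs. Tnfaip3, or A20, which edits ubiquitin chains to shut off NF-κB, rose 5.32-fold, from 125.9 and 178.1 to 809.4 and 814.8 (log2 2.41, adjusted p = 2.11e-07). It was lower again with GW7647, at 435.0 and 457.1 (log2 -0.87, adjusted p = 0.000742). Ptpn6, the phosphatase SHP-1, had the same order of groups, 1132 and 1122, 1934 and 1980, and 1235 and 1384, whereas Socs3 fell with Dex (log2 -0.59, adjusted p = 0.000118) and was higher with GW7647 than with Dex alone (log2 0.30, adjusted p = 0.0371).

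A second list of 63 interferon-induced genes that are not members had 43 tested. With Dex 20 were lower (46.5%, beside 26.0% of all tested genes) and 10 higher (23.3%, beside 25.5%), with a median of -0.21. Among the 20, Mx2 and Mndal passed the filter on low counts only through the untreated group, which favoured a call in that direction. On adding GW7647, 14 were lower (32.6%, beside 7.58%) and 0 higher, with a median of -0.28. The membrane proteins that block virus entry fell: Ifitm2 3.43-fold, from 1973 and 2078 to 564.0 and 617.9 (adjusted p = 5.82e-08), Ifitm3 3.36-fold (adjusted p = 8.20e-07) and Ifitm1 2.45-fold (adjusted p = 3.45e-06). Ifitm1 was lower again with GW7647, at 150.7 and 148.8 against 270.8 and 258.8 (log2 -0.82, adjusted p = 0.00157). The activating enzyme of ISG15, Uba7, fell 1.66-fold, from 7191 and 7751 to 4597 and 4414 (adjusted p = 2.58e-06). Its conjugating enzyme Ube2l6, named after its values were seen, fell 1.86-fold, from 11750 and 12540 to 6735 and 6327 (adjusted p = 4.61e-07). Among the 10 that were higher, Lgals9, which encodes the lectin galectin-9 and was also named after its values were seen, rose 2.25-fold, from 2518 and 2369 to 5075 and 5932 (log2 1.17, adjusted p = 7.50e-07). It was lower again with both drugs, at 3438 and 3543.

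MHC class I presentation, which interferon also induces, had more genes higher than lower. Of 18 tested genes of 20 listed, 8 were higher and 2 lower with Dex (44.4% and 11.1%, beside 25.5% and 26.0% of all tested genes). Among the 8, H2-Q6 passed the filter on low counts only through the Dex group, which favoured a call in that direction. Tap1, a subunit of the peptide transporter, rose 2.70-fold, from 374.1 and 400.1 to 1113 and 971.4 (log2 1.43, adjusted p = 5.74e-07), and its partner Tap2 rose 1.79-fold (log2 0.84, adjusted p = 2.28e-06). B2m, the light chain of the complex, rose 1.75-fold, from 5305 and 5262 to 8511 and 9979 (log2 0.81, adjusted p = 7.14e-06), and the proteasome activator subunit Psme2 1.44-fold (log2 0.53, adjusted p = 1.23e-05). On adding GW7647, 4 of the 18 were lower (22.2%, beside 7.58% of all tested genes) and 0 higher.

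**Figure D4:**
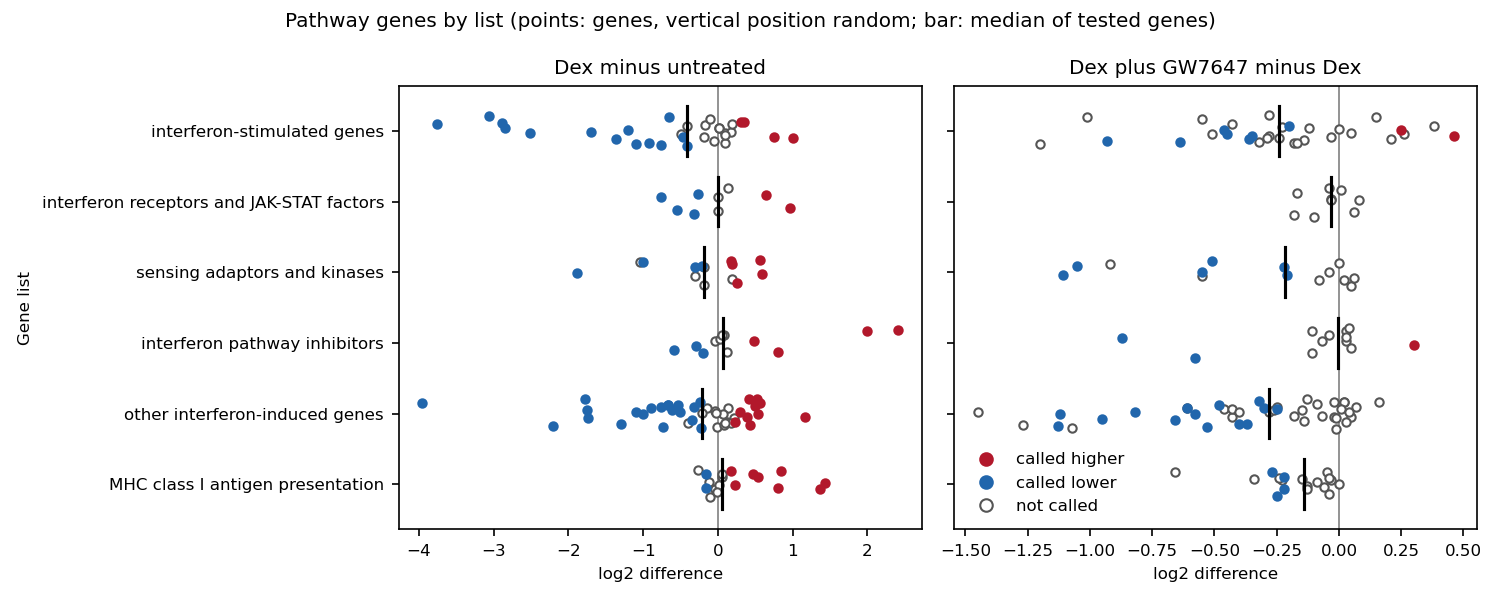
Log2 differences (x axes) of tested genes in the member list and 5 lists of the interferon pathway (y axis, with random vertical spread), Dex minus untreated on the left and Dex plus GW7647 minus Dex on the right, with called genes filled and the list median as a bar. On the left the members' median lies at -0.41 and that of MHC class I presentation at 0.06, and on the right every called gene of the other interferon-induced list lies below 0.

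Markers of other blood and liver cells also differed between the groups, and their part in the members' changes was not tested. For the counts below, 26.0% of all tested genes were lower and 25.5% higher with Dex. On adding GW7647, 7.58% of all tested genes were lower and 2.15% higher. Macrophage markers, 5 tested of 14 listed, summed to 1664 to 1732 normalized counts untreated, 705.2 to 751.9 with Dex and 507.3 to 515.0 with both drugs. With Dex 3 of the 5 were lower (Lyz2 3.61-fold, Adgre1 5.60-fold and Fcgr1), Cd68 was higher and Csf1r was not called, at 260.4 and 260.2 untreated and 226.1 and 232.5 with Dex. Of the 9 not tested, C1qa, Cd5l and Cd163 were at 0 in every library. Granulocyte markers, all 11 tested, summed to 15370 to 16390, 7156 to 7486 and 4425 to 4524, with 9 lower in each step, and megakaryocyte markers, all 9 tested, to 37720 to 39790, 16710 to 18400 and 11960 to 12200, with 8 lower with Dex and 7 lower on adding GW7647. Monocyte markers (5 tested of 6) summed to 816.7 to 880.0, 969.1 to 996.7 and 537.4 to 572.3. Of these, 3 were lower with Dex (Ly6c2, Ccr2 and Ms4a6c, with a list median of -0.99), while F13a1 alone was higher, from 341.1 and 356.1 to 726.8 and 763.2. Mast cell and basophil markers (7 of 9) summed to 6162 to 6176, 9756 to 10110 and 5642 to 5747. Of these, 5 were lower with Dex, Cpa3, Mcpt8 and Cma1 among them, with a list median of -2.01, and 2 were higher, Tpsb2 and Hdc, the latter from 1749 and 1748 to 8879 and 8487. Lymphoid markers (3 of 12) summed to 204.7 to 248.2, 82.50 to 98.76 and 46.93 to 51.96, with 2 lower with Dex and Gzma at 0 in every library. Dendritic cell markers (5 of 10) summed to 395.4 to 407.1, 348.8 to 409.0 and 311.8 to 372.8, with 2 higher and 2 lower with Dex. Endothelial and stromal markers (6 of 11) summed to 1204 to 1347, 1343 to 1351 and 943.6 to 981.1, with 1 higher and 2 lower. Hepatoblast markers (3 of 8) summed to 28.91 to 36.68, 199.1 to 202.5 and 124.6 to 129.9, with Serpina1a at 0 in every library. Of these, 2 were higher with Dex and Krt18 was not called. Apoa1 went from 9.78 and 4.625 to 158.2 and 152.8, and Afp from 11.0 and 9.251 to 29.32 and 38.44. Erythroid genes moved as well, with 6 of 9 tested markers lower and 1 higher with Dex. Adgre1, Fcgr1, Epx, Mcpt4 and Ccr9, all lower with Dex, passed the filter on low counts only through the untreated group. Pacsin1, a dendritic cell marker that was higher with Dex, passed it only through the Dex group. Apoa1, Afp and the dendritic cell marker Xcr1, also higher with Dex, did not reach it in untreated cells. Their raw counts there were 8 and 4, 9 and 8, and 3 and 4. The direction of these calls was therefore favoured by the filter.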

How the data were processed

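RNA was measured in 6 polyA RNA-seq libraries, 2 per group. Per the submitters' processing notes, TopHat 1.4.1, HTSeq, DESeq, mm9 and NCBIM37 were used; handling of reads with several matches, and strand, are not given in the sources used here, so counts of close copies (Ifit, Oas1 and Isg15 families) are uncertain. The 2 deposited tables hold the authors' whole-number read count per gene and library, and the authors' fold ratio between groups with its adjusted p-value for 2 comparisons. Symbols were joined by Ensembl identifier through GENCODE M21 for 32897 of 37620 genes (87.4%). Counts of all 6 libraries were fitted with edgeR 4.0.16 in R 4.3.3 (quasi-likelihood test, trimmed mean of M values scaling, filterByExpr with a minimum count of 10), which kept 14125 genes holding 99.971% of counts. The fit was tested on simulated data. Errors are SD of 2 libraries or the SE of a log2 difference. Alternatives were other scalings, filters, a replicate block, DESeq2 1.42.0, only the libraries compared, and leaving out each library. Members and lists were chosen with earlier results of these data known. Values of every library were given for members averaging at least 50 normalized counts and called with at least a 2-fold difference in 1 comparison, and always for Isg15, Ifit1, Irf1, Irf7, Irf9, Stat2, Usp18 and Psmb8. From each pathway list, up to 4 called genes with the smallest p in any comparison were named, and always Ifnar1, Ifnar2, Ifngr1, Jak1, Tyk2 and Socs1. A result of that list is not reported here.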

Additional observations from a re-analysis of the deposited data

How the results depend on the processing

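Under 13 alternatives per comparison, no member's called difference changed sign. With dexamethasone against untreated, 17 of the 18 called members were called in every alternative that tested them, Lgals3bp being the exception. The filter on a mean of at least 50 counts tested 27 members and did not test Usp18 or Oas1a. For both drugs against untreated, 19 of 21 were, the exceptions being Ifi35 (lost in 6, adjusted p up to 0.166) and Psmb8 (lost in 2, without untreated replicate 2 and without both-drug replicate 2, adjusted p up to 0.0780). For both drugs against dexamethasone, 1 of 9 was. The others were lost in 1 to 6 settings each, with adjusted p up to 0.308 for Dtx3l, 0.255 for Ifi35, 0.228 for Herc6, 0.137 for Oas3 and Psmb8, 0.117 for Oasl2, 0.108 for Isg15 and 0.0681 for Rsad2.

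In that comparison the genes called numbered 1374 in all, 2085 when every gene with at least 1 count was tested, and 548 to 1729 when each library was left out. Members called higher numbered 0 to 2 and members called lower 2 to 7 over the libraries left out, and 3 were lower with DESeq2. The smallest counts came without a both-drug library. The replicate block left 4 members lower there, against 7. It gave 6824, 998 and 6523 called genes in the 3 comparisons. The labels do not say if libraries with the same replicate number shared a sort or litter. The correlation of deviations between same-numbered libraries was -0.191, -0.034 and 0.123, which cannot decide it.

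The members' median with dexamethasone against untreated was -0.28 with total count scaling, -0.46 with every gene and -0.49 with DESeq2, and -0.41 to -0.35 over the libraries left out. For both drugs against dexamethasone it was -0.28 to -0.16 over the libraries left out. For both drugs against untreated it was -0.43 with total count scaling, -1.04 with every gene, -1.08 with DESeq2 and -0.73 to -0.61 over the libraries left out. These medians cover 38 members with every gene or DESeq2 and 32 or 33 with a library left out, against 31. Total count scaling gave 5451 genes higher and 2584 lower with dexamethasone, against 3606 and 3677, and 5480 and 2719 with both drugs against untreated, against 3486 and 3539. Where not stated, the cause was not tested. Of the 7 members below the filter, Ifit3 and Oas2 were called lower with every gene tested, both with dexamethasone and with both drugs against untreated (adjusted p = 0.0330 and 0.0457 for the latter), and 0 of 7 between both drugs and dexamethasone. With DESeq2, 0 of the 2 or 3 of these with an adjusted p against untreated passed.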
